A study of Mus musculus with 8 samples.

Results

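The contactin-associated protein genes encode the Caspr proteins, and ATAC-seq peaks in 6 of them, Cntnap1, Cntnap2, Cntnap4, Cntnap5a, Cntnap5b and Cntnap5c, are described here across 3 Chd7 genotypes of granule neuron progenitors (GNPs). The genes were taken by name, and their windows were the gene bodies with 10 kb on either side (mm10, GENCODE annotation), every peak touching a window being counted. These windows held 236 of the 152984 peaks of the wild-type (WT) list, 132 of the 106974 peaks of the heterozygous (het) list and 246 of the 174407 peaks of the mutant list. They belong to 6 of the 21951 protein-coding genes of the annotation and span 4954 kb. The family was picked because the mutant list holds a strong peak in Cntnap5a that the WT list lacks. The contrast of WT and mutant peaks is therefore given as a description, without a test.

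The labels place all 8 libraries in granule neuron progenitors of the cerebellum of C56Bl6/J mice at postnatal day 7, untreated, and name 3 groups by genotype, Chd7 wild type (3 libraries), Chd7 mutant (3) and Chd7 het (2). Per the study's methods, WT cells were Chd7 f/f without Cre, het cells Atoh1-Cre::Chd7 f/+ and mutant cells Atoh1-Cre::Chd7 f/f. WT and mutant cells thus both carried 2 floxed alleles, and in het and mutant cells the Atoh1 promoter drove Cre in the granule cell lineage. The study describes the WT and mutant replicates as technical. The study attributes Chd7 protein left in the posterior lobe of the mutant cerebellum to probable lower recombination by Atoh1-Cre there, so mutant preparations may hold cells that kept Chd7. Chd7 encodes a chromatin remodelling enzyme that uses ATP to move nucleosomes, and the comparison asks where DNA accessibility depends on it.

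Caspr proteins are single-pass membrane proteins of the neurexin superfamily. They are best known from myelinated axons, where Caspr (Cntnap1) joins contactin 1 at the paranodes beside the node of Ranvier, and Caspr2 (Cntnap2) joins contactin 2 at the juxtaparanodes, where voltage-gated potassium channels of the Kv1 type gather. Caspr4 (Cntnap4) is known from interneuron synapses, and less is known of the Caspr5 genes, which are present as 3 paralogues in the mouse. GNPs are unmyelinated precursors, so the family is seen here before its best known setting.

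The authors pooled the libraries of a group before peak calling. Values here thus come without replicate error, and the genotypes could not be compared against the spread of their libraries. MACS2 kept 50394313 tags for WT, 30923002 for het and 51030229 for mutant. Tags were 76 bp long in the mutant group and 107 bp in the other groups, and het peaks came from another alignment with another extension (200 bp against 90 and 88 bp). Genotype and these settings cannot be told apart. Because q values grow with depth, the strength of a peak is given as its rank, the percentage of peaks of the same list at or below its -log10 q. Start-site peaks of 10 granule progenitor markers were present for 9 genes in WT, 9 in het and 10 in mutant, at median ranks of 80.8, 78.0 and 85.3. Of 14 markers of other cerebellar cells, 11, 9 and 10 had one, at median ranks of 57.5, 43.0 and 59.9. Pcp2, Sox10 and Cx3cr1 lacked one in every list, and the medians are over markers with a peak. Some were as strong as progenitor markers, with ranks of 89.1, 92.8 and 90.1 at Calb1. Ppp1r17 had 82.8, 57.1 and 89.9, and Slc1a3 77.5, 77.2 and 87.8. The part of other cells in the results was not tested. The strongest start-site peak of Chd7 itself was in all 3 lists, at rank 89.4 in WT, 81.8 in het and 86.3 in mutant, which says nothing of the deleted exon.

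The sequences below show the DNA on which the results turn, read from GRCm38.p6. The first 3 are promoters from the RefSeq table, from 250 bases before to 50 after an annotated start, for the 2 of the 6 genes that the table holds. Capitals mark CG dinucleotides, since the openness of a start site often goes with its CG content. The Cntnap5b promoter (chr1:99772151-99772450, plus strand) and the first Cntnap2 promoter (chr6:45059811-45060110, plus strand) hold 14 CG each, more than or as many as 65.4% of the 32851 promoters of the table. The second Cntnap2 promoter (chr6:47244146-47244445, plus strand), at an internal start in intron 21 of the longest transcript, holds 3.
Cntnap5b promoter: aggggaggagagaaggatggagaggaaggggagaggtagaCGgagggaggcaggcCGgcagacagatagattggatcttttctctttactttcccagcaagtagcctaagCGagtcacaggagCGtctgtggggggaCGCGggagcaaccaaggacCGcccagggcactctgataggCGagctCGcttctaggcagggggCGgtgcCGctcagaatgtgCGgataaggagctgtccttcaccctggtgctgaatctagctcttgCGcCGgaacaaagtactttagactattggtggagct
Cntnap2 first promoter: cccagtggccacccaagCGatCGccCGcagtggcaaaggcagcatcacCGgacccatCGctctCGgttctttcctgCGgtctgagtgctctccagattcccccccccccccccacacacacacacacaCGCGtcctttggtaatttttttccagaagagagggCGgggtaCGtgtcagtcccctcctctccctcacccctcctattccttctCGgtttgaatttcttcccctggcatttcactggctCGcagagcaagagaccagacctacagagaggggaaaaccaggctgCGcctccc
Cntnap2 internal promoter: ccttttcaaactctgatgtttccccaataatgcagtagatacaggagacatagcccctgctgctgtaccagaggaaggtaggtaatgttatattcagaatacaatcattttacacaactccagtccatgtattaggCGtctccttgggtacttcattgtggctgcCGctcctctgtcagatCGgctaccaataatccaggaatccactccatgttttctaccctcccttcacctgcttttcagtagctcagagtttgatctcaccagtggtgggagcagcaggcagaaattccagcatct

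The next 6 sequences lie under peaks away from those starts and are given on the plus strand, which is the sense strand of every gene of the set. Capitals mark the letters of 9 short motifs that were searched on both strands, the E-boxes CAGCTG and CAGATG, the NFI-type string TTGGCA, the AP-1 site TGANTCA, a part of the CTCF core AGGNGGC, the SOX strings ACAATG and ACAAAG, the ZIC string CAGCAGG and the homeodomain string TAATTA. The first is the mutant-list peak of Cntnap5a (chr1:116370899-116371090, intron 13) and the second its nearest neighbour shared with WT (chr1:116366915-116367163, intron 13). Cntnap2 gives the next pair, its strongest WT peak (chr6:46347028-46347327, exon 11 and its edges) and its peak that lost most rank from rank 90 or more (chr6:47231546-47231799, intron 21). The last pair is the strongest peak of Cntnap4 (chr8:112735620-112735919, intron 4) and the strongest mutant peak of Cntnap5c away from its start (chr17:57855974-57856207, intron 1).
Cntnap5a mutant-list peak: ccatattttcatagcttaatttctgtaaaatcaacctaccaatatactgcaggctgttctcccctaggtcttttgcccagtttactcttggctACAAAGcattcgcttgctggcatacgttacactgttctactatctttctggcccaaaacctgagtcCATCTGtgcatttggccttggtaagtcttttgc
Cntnap5a shared neighbour: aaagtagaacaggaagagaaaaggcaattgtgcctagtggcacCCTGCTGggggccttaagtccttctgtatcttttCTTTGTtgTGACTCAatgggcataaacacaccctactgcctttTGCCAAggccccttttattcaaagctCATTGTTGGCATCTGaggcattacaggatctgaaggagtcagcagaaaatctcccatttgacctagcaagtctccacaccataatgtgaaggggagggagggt
Cntnap2 exon 11 peak: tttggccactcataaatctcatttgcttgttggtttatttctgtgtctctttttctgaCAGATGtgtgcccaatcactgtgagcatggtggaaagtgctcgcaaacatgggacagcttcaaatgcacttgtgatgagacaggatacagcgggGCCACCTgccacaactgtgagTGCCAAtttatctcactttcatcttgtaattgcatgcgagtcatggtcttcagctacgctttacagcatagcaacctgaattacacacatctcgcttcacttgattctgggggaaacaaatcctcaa
Cntnap2 intron 21 peak: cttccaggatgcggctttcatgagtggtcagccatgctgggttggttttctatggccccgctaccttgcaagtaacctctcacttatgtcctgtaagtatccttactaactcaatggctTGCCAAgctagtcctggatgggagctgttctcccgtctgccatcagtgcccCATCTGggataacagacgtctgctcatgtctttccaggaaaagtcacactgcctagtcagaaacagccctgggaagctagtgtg
Cntnap4 intron 4 peak: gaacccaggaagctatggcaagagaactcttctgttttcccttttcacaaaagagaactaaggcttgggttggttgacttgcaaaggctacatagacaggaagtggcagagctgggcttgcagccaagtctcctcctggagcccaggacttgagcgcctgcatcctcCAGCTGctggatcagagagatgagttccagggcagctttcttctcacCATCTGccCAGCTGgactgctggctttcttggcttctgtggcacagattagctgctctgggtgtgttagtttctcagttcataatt
Cntnap5c intron 1 peak: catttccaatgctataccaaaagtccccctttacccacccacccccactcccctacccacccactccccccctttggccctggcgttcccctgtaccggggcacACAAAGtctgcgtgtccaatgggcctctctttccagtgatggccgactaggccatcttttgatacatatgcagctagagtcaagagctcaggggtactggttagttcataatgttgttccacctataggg

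The E-box CAGATG was found in the Cntnap5a mutant-list peak, in its shared neighbour, in both Cntnap2 peaks and in the Cntnap4 peak. It lay within the 301 bp around the summit of 34.8% of all WT peaks, so 5 of 6 sequences is no mark of these genes. The Cntnap5a mutant-list peak held a single other string, the SOX letters ACAAAG, while its neighbour held the AP-1 letters TGACTCA, both SOX strings, 2 NFI-type strings and the ZIC string. The Cntnap4 peak held CAGCTG at 2 places. These are matches of letters and do not show that a factor binds.

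Peak density separated the genes into 3 kinds. Cntnap1, 20.2 kb long on chromosome 11 with neighbours on both sides, had 199, 124 and 249 peaks per Mb of window in the order WT, het, mutant. Cntnap2, which covers 2245 kb of chromosome 6 and is among the longest genes of the genome, had 58.7, 31.3 and 59.2, and Cntnap4, 313 kb on chromosome 8, had 69.1, 48.1 and 69.1. The Caspr5 genes were sparse. Cntnap5a (903 kb, chromosome 1) had 28.2, 15.2 and 34.7 peaks per Mb, Cntnap5b (713 kb, chromosome 1) had 28.6, 15.0 and 32.7, and Cntnap5c (641 kb, chromosome 17) had 37.8, 22.7 and 34.8.

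**Figure D1:**
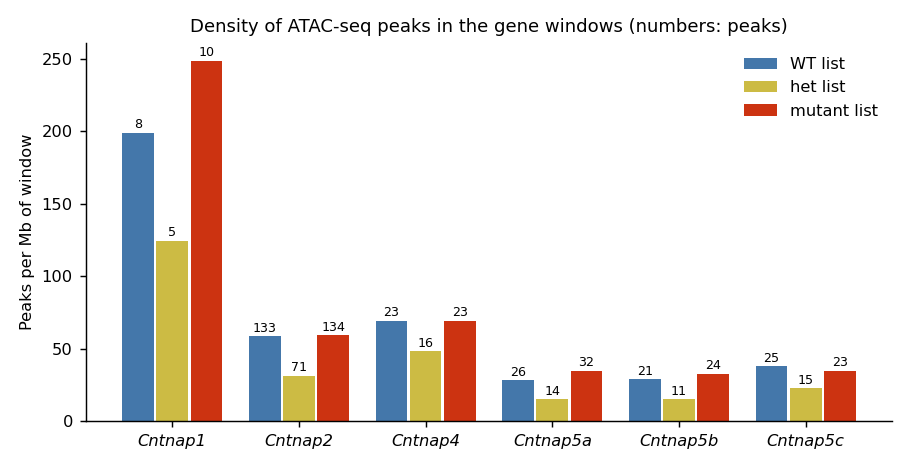
Peaks per Mb of window (gene body and 10 kb on each side) on the y axis for each gene on the x axis, with 1 bar for each of the WT, het and mutant lists and the number of peaks above it. Bars of the 3 Caspr5 genes stay below 38 per Mb in every list, and the het bar is the lowest for every gene.

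Compared with the 230 protein-coding genes of at least 500 kb, whose median was 66.7 peaks per Mb in WT, 44.1 in het and 77.0 in mutant, Cntnap2 lay at percentiles 38.7, 29.1 and 29.1. Cntnap5a lay at 7.83, 7.39 and 10, Cntnap5b at 8.70, 6.96 and 7.83, and Cntnap5c at 13.5, 13.9 and 10.4. All 4 long genes were thus below the middle of genes of their size in every list, and the het list was shorter throughout. By number of peaks per Mb in the 3 lists, the genes most like Cntnap5a among 71 genes of similar length were Malrd1 (29.4, 17.4 and 33.4 per Mb) and Dpp10 (22.8, 17.5 and 39.0). Those most like Cntnap5b were Malrd1 and Zfp804b, those most like Cntnap5c Ralyl and A830018L16Rik, those most like Cntnap2 Ptprd and Lrp1b, those most like Cntnap4 Dock10 and Kcnq3, and those most like Cntnap1 Rmnd5b and Etnk2.

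Most peaks lay within introns, 89.4% in WT, 87.1% in het and 86.6% in mutant. Peaks just inside and just outside the windows set the limits of the count. The farthest flanking peak that was counted lay 8.17 kb from Cntnap4 in WT (8.14 kb in het, 8.08 kb in mutant), and the nearest one left out lay 10.4 kb from Cntnap2 in the mutant list (rank 46.7), 10.4 kb from Cntnap1 in WT (rank 60.7) and 10.3 kb from Cntnap1 in het (rank 52.4). Nearest peaks beyond Cntnap5a were 25.7 kb away in WT and 74.1 kb in mutant.

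The annotated starts of the 3 Caspr5 genes and of Cntnap2 carried strong peaks in all 3 lists. The Cntnap5a start peak (chr1:115684558-115684983 in WT) had a pileup of 48 tags in WT, 43 in het and 52 in mutant, at ranks 94.2, 81.1 and 95.3. The Cntnap5b start peak (chr1:99771938-99772851 in WT), which covers the whole printed promoter, had 52, 87 and 63 tags, at ranks 94.3, 95.4 and 97.7. In the mutant list that stretch was called as 2 peaks, of which the second (chr1:99772718-99772866) was weak at rank 42.9. The Cntnap5c start peak (chr17:57769044-57769456 in WT) had 42, 67 and 53 tags, at ranks 89.2, 90.5 and 95.4. The rank differences from WT to mutant were 1.10, 3.39 and 6.24 points. The median over all shared WT peaks of these lists of unequal length was 2.28 points. That median covers peaks of every rank, while these start peaks stood near the top with little room to rise. The 2 are thus not a like comparison.

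At Cntnap2 the first start (chr6:45059545-45060536 in WT) had 65, 96 and 62 tags, at ranks 93.2, 91.6 and 91.8, and its summit lay in the printed first promoter in WT and het but upstream of it in mutant. A second peak just before it (chr6:45059132-45059367) had rank 72.0 in WT and 75.8 in mutant, and in het the call spanned both. Cntnap2 also had peaks at internal starts. The one in intron 17 (chr6:47044520-47045065) had ranks 78.1, 69.4 and 78.7, while the one in intron 21 (chr6:47244111-47244547), over the printed internal promoter, had 25, 29 and 36 tags and ranks 73.6, 61.2 and 86.0, a rise of 12.4 rank points from WT to mutant. The start peaks of Cntnap2 therefore did not move in 1 direction.

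The Cntnap4 start peak (chr8:112569557-112570085 in WT), which also lies at the start of the long non-coding gene Gm26994, was weaker, with 36, 42 and 33 tags and ranks of 82.0, 72.5 and 78.5. Cntnap1 differed from all others. At its coding start the peak (chr11:101176139-101176282 in WT), which is near the start of Ccr10, had ranks of 48.6, 5.97 and 28.9. Its 2 stronger peaks stood at the ends of the gene. That at chr11:101171004-101171708, near an upstream start of Cntnap1 and the start of Plekhh3, had ranks 87.4, 80.6 and 92.8, and that in the last exon, exon 24, had 88.3, 84.6 and 93.8. Reads there cannot be assigned to Cntnap1 rather than to its neighbours.

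Away from starts, the strongest sites were in Cntnap2 and Cntnap4 and were in all 3 lists. The Cntnap2 peak over exon 11 (chr6:46346683-46347561 in WT) had rank 99.6 in both WT and mutant, where it led the family, and 98.3 in het. In intron 1 of Cntnap2, a peak starting at chr6:45381114 in WT had 66, 105 and 59 tags and ranks 98.6, 98.6 and 97.4, and another starting at chr6:45584536 had 59, 83 and 62 tags and ranks 97.3, 95.5 and 98.0. Het tags were extended to 200 bp, so pileups of het and the other lists are not on 1 scale. Peaks of rank 90 or more numbered 12 in WT, 7 in het and 14 in mutant for Cntnap2.

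In Cntnap4 the intron 4 peak (chr8:112735492-112736099 in WT) had ranks 98.6, 96.9 and 97.8, and the intron 1 peak starting at chr8:112581518 had 55, 74 and 54 tags and ranks 95.6, 93.2 and 96.2. The Caspr5 introns held fewer strong sites. In Cntnap5b a pair of peaks in intron 11, joined in het, reached ranks 90.04, 83.3 and 92.8. In Cntnap5a the strongest shared intronic peak, in intron 19 (chr1:116455047-116455529 in WT), had 29, 31 and 28 tags and ranks 82.4, 74.1 and 84.3.

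In Cntnap5c the strongest intronic peak (chr17:57855974-57856214 in WT) had rank 85.4 in WT and 90.5 in mutant and no het peak within 300 bp. The 301 bp around its summit were repeat-masked over 100% of their length. Per the study's methods reads with several matches were discarded with bowtie, while the WT and mutant headers name a STAR folder. Among all peaks, 6.26% of WT, 5.86% of mutant and 2.74% of het peaks were at least 50% repeat-masked. The part of repeats in this peak was not tested.

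Peaks that the WT or the mutant list held without the other were common in these windows, and most of them were weak. Of 236 WT peaks, 84 had no overlapping mutant peak, 35.6% (95% Wilson interval 29.8 to 41.9, which like all intervals here covers counting error over peaks only), against 22.8% of all WT peaks. Of 246 mutant peaks, 90 had no overlapping WT peak, 36.6% (30.8 to 42.8), against 30.7% of all mutant peaks. Unshared peaks ranked low, so the whole lists were also weighted to the ranks of the window peaks, which gave 29.2% for WT and 33.9% for mutant. In the 230 long genes the shares were 26.2% and 34.0%. The WT share of the family was above all 3 of these, with the rank-weighted value just below its interval, while the interval of the mutant share held both the rank-weighted and the long-gene value.

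Cntnap5a and Cntnap5b had the highest shares in both directions. In Cntnap5a the mutant list lacked 13 of 26 WT peaks (50%, 32.1 to 67.9) and the WT list lacked 19 of 32 mutant peaks (59.4%, 42.3 to 74.5), against rank-weighted values of 32.7% and 41.0%. In Cntnap5b the counts were 9 of 21 (42.9%, 24.5 to 63.5) and 11 of 24 (45.8%, 27.9 to 64.9). In Cntnap5c they were 10 of 25 (40.0%) and 7 of 23 (30.4%). Rank-weighted values were 27.9% and 36.7% for Cntnap5b and 27.4% and 27.8% for Cntnap5c. They were 24.6% and 24.0% for Cntnap4 and 32.4% and 32.2% for Cntnap1. Cntnap4 had 7 of 23 (30.4%) in both directions, and Cntnap2 45 of 133 (33.8%) and 45 of 134 (33.6%), close to its rank-weighted values of 30.5% and 34.7%. In Cntnap1 all 8 WT peaks had a mutant peak and 1 of 10 mutant peaks had no WT peak. For mutant peaks the interval of Cntnap5a lay above those of Cntnap2 (26.1 to 41.9) and Cntnap1 (1.79 to 40.4), while for WT peaks the interval of Cntnap5a overlapped those of the other genes. Genes were not tested against each other. Cntnap5a was chosen for a peak that is 1 of its 19 mutant peaks without a WT peak. The separation from Cntnap2, 42.3 against 41.9, draws on that peak and is no support for a difference between genes.

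The unshared peaks were faint. The 84 WT peaks that mutant lacked had a median pileup of 9 tags, a median width of 118 bp and a median rank of 15.9, against 17 tags, 236 bp and rank 56.6 for the 152 shared ones. A single WT peak of the 84 was above rank 50, in Cntnap5b at rank 53.2, where a het peak was present. The 90 mutant peaks without a WT peak had a median of 10 tags and rank 25.4, and 10 of them were above rank 50. Repeats were more frequent among them. Peaks at least 50% repeat-masked made up 20.2% of the unshared and 5.92% of the shared WT peaks of the windows, and 24.4% and 7.69% of the mutant ones. In the whole lists the same shares were 16.0% and 3.37% for WT and 11.5% and 3.36% for mutant. With such peaks left out of the windows, 31.9% (26.0 to 38.5) of 210 WT peaks had no mutant peak. For mutant peaks without a WT peak the share was 32.1% (26.2 to 38.6) of 212. The WT interval then held the rank-weighted 29.2%, which was taken with such peaks kept. Whole lists were not recomputed in this way, and the part of repeats was not tested further.

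The het list held a peak at 9 of the 84 WT peaks without a mutant peak (10.7%, 5.74 to 19.1), against 13.2% in the whole list, and at 15 of the 90 mutant peaks without a WT peak (16.7%, 10.4 to 25.7), against 15.2%. For the 152 shared WT peaks it held 107 (70.4%, 62.7 to 77.1), against 77.9% of all shared WT peaks. The interval for the shared peaks lay below the whole-list share, while those for the unshared peaks held it. The unshared values rest on the lengths of the lists. With all lists cut to the length of the het list, het held 33.3% (20.2 to 49.7) of 36 unshared WT peaks. For 33 unshared mutant peaks the share was 51.5% (35.2 to 67.5). Whole-list het shares were not computed under this cut. The 13.2% and 15.2% come from uncut lists and are no baseline for these values, which thus do not show whether the windows differ from the whole lists.

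When peaks of all 3 lists within 300 bp were joined, the windows held 313 regions. Of these 104 (33.2%) were in all 3 lists, against 45.7% of all regions, 70 (22.4%) were in WT alone, against 13.3%, and 70 (22.4%) in mutant alone, against 20.1%. A further 45 were in WT and mutant, 10 in het and mutant, 10 in het alone and 4 in WT and het. Cntnap5a had 41 regions, 11 in all lists, 10 in WT alone and 14 in mutant alone. Cntnap5b had 32, with 7, 8 and 10. Cntnap1 had 5 of 8 regions in all lists and the other 3 in WT and mutant, and Cntnap4 followed with 13 of 29 in all lists (44.8%).

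**Figure D2:**
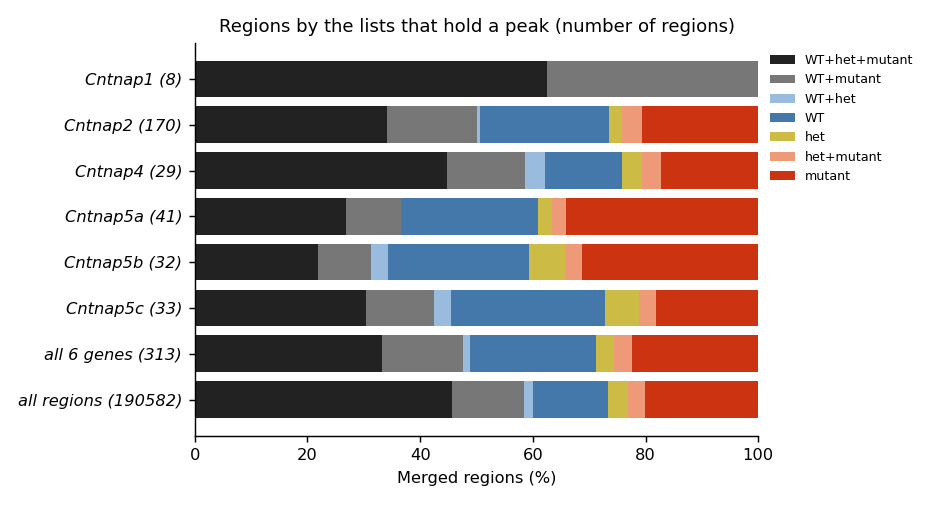
Share of merged regions in percent (x axis) by the combination of lists that holds a peak (colours), for each gene, all 6 genes and all regions of the genome (rows, with the number of regions). The black part, regions in all 3 lists, spans 33.2% for the 6 genes and 45.7% for all regions, and the red part, mutant alone, is widest in Cntnap5a.

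The peak for which the family was picked lies 686262 bp from the start of Cntnap5a, in intron 13, which is 119.6 kb long. In the mutant list it had 35 tags at the summit, a fold enrichment of 7.42 over local background, a -log10 q of 19.4 and rank 81.2. Neither the WT list nor the het list had a peak within 300 bp. Among the 39245 mutant peaks of the genome without a WT or het peak that near, 2 had a higher -log10 q, and 3 in all, this one included, were at rank 80 or more. The lowest pileup of any peak was 7 tags in the WT list and 8 in the het list, but a call also depends on the local background. The WT and het signal here is thus known only to have stayed below a call, which may be above these pileups. The values of the mutant peak chose the gene and are no support for a change.

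Pileup and fold enrichment together give the expected background that MACS2 used. At this peak it was 3.85 tags in the mutant list, 2.32 times the genome-wide floor of 1.66. Without a control it is drawn from the same tags, so this peak and its neighbours can raise it themselves. The background is thus no separate evidence about this stretch. A shared peak just upstream (the printed neighbour) went from 19 tags and rank 61.2 in WT to 34 tags and rank 82.1 in mutant, with 23 tags and rank 52.6 in het. Its background was 3.38 tags in mutant, 2.03 times the floor, and 2.46 in WT, 1.46 times the WT floor of 1.68. Between them lay another mutant peak without a WT or het peak (chr1:116367945-116368045, rank 27.1), at 2.08 times the floor. Across the windows 32 of 246 mutant peaks (13.0%) and 27 of 236 WT peaks (11.4%) were at 2 times the floor or more. In the whole lists 24.7% and 25.0% were, so such values were not rare there. Within Cntnap5a, only the mutant peaks of this stretch reached 2 times the floor in any list. The highest other mutant value of the gene was 1.80 times. Whether the pooled mutant libraries contributed alike cannot be told from these lists.

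Other mutant peaks of Cntnap5a without a WT or het peak were weaker. The next was also in intron 13 (chr1:116394868-116395019), with 15 tags and rank 57.5, and its surroundings were repeat-masked over 100%, compared with 40.5% at the strongest one. A peak in intron 21 (chr1:116570594-116570829) had 14 tags and rank 52.1. In 5 equal parts of the gene from its start, WT had 3, 6, 6, 6 and 4 peaks and mutant 5, 2, 7, 10 and 7. Mutant thus had more peaks in every part but the second. The part with 10 holds the peak for which the family was picked. In WT the strongest Cntnap5a peaks without a mutant or het peak were 4 with equal values, 11 tags and rank 35.0, of which 2 lay in intron 10, 1 in intron 11 and 1 in intron 13.

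**Figure D3:**
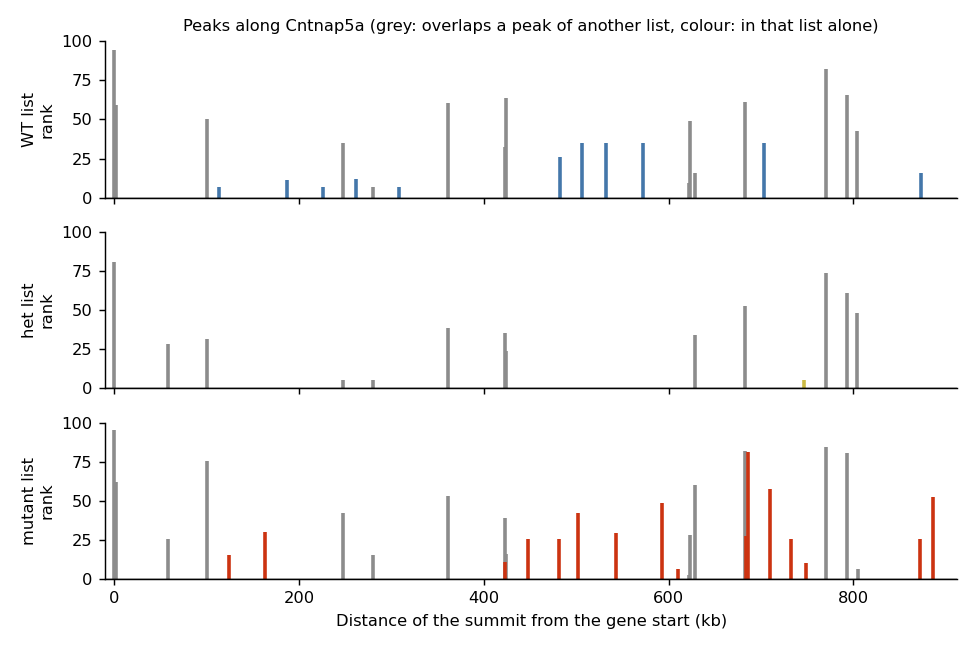
Rank of each peak in its list (y axis, 0 to 100) against the distance of its summit from the start of Cntnap5a in kb (x axis), with 1 panel for each list. Grey lines overlap a peak of another list and coloured lines do not. The mutant panel has the tall coloured line of the rank 81.2 peak beside a grey one, while coloured WT lines stay at or below rank 35.0.

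No other gene of the family had a mutant peak as strong as that of Cntnap5a without a WT peak. As the family was picked for that peak, this order is a description only. In Cntnap5b the strongest (chr1:99774256-99774406, intron 1) had 24 tags and rank 66.2, and in Cntnap2 (chr6:47042760-47042913, intron 17) 22 tags and rank 65.9, and het peaks were present at both. Cntnap5b also had a peak in mutant alone in intron 10 (chr1:100180129-100180266, rank 57.5), and Cntnap4 one in exon 2 (chr8:112616372-112616520, rank 50.2). In WT alone, Cntnap2 (chr6:46509954-46510052) and Cntnap5b (chr1:100447583-100447832) each had a peak of rank 48.2, the strongest of that kind.

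Shared peaks numbered 152. Their median rank change from WT to mutant was 3.17 rank points (order-statistic 95% interval 0.75 to 5.05), against 2.28 for all shared WT peaks, and 58 of 152 ranked lower in mutant (38.2%), against 38.1% of all. The median log2 ratio of mutant to WT pileup at equal depth was 0.06, against 0.08 for all shared peaks. By gene the median change was 5.14 in Cntnap1, 4.28 in Cntnap2, 1.33 in Cntnap4, 2.33 in Cntnap5a, 1.06 in Cntnap5b and 2.69 in Cntnap5c. The 2.28 of all shared peaks lay within the interval of the family. With lists of equal length the median change was 0.37 (-1.03 to 3.41) over 104 shared peaks, an interval that includes 0.

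**Figure D4:**
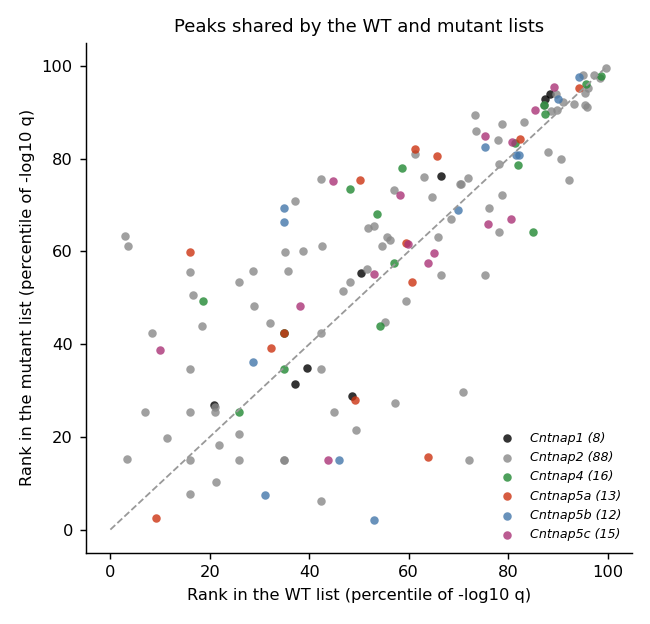
Rank in the mutant list (y axis) against rank in the WT list (x axis) of the 152 shared peaks, in colours by gene, with the line of equal rank dashed. Most peaks above rank 80 in WT stay close to the line, and the spread grows toward lower ranks.

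Rank differences of 20 points or more were seen in 35 of 152 peaks, 13 down and 22 up. The share of all shared WT peaks that moved as far was not computed. These counts and the peaks named below are thus a description only, with no general rate beside them. A peak above rank 80 in WT has no room for such a rise, and of the 13 falls 1, in Cntnap4, started from rank 80 or more. Among peaks above rank 90 in WT, the largest fall was in Cntnap2 intron 21 (chr6:47231546-47231799, printed above), from rank 92.2 to 75.4, with het at 79.5. In Cntnap4 intron 3 (chr8:112674459-112674975) the peak went from 31 tags and rank 85.0 to 17 tags and rank 64.2, and het was at 56.7. The steepest falls were from middle ranks, in Cntnap2 intron 4 (chr6:45991215-45991401) from 72.2 to 15.1, in Cntnap5a intron 6 (chr1:116108421-116108671) from 63.8 to 15.6 and in Cntnap5b intron 1 (chr1:99883674-99883802) from 53.0 to 2.13. In the last, pileup dropped by 0.83 on the log2 scale. In tags these falls were from 21 to 9, from 17 to 10 and from 14 to 8. Few tags span many rank points at this level. WT peaks of 8, 9 and 10 tags at the genome-wide floor of background had ranks of 6.97, 15.9 and 25.9.

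The rises named here started from low and middle ranks. Downstream of Cntnap2 (chr6:47307068-47307167) a peak went from 8 tags and rank 2.90 in WT to 19 tags and rank 63.3. In intron 9 (chr6:46213038-46213197) a peak went from 8 tags and rank 3.57 to 16 tags and rank 61.1. In Cntnap5a intron 13 (chr1:116313336-116313469) the rank went from 15.9 to 59.9, and tags from 9 to 16, with het at rank 33.9. In its intron 1 (chr1:115784886-115785218) the rank went from 50.2 to 75.4, and tags from 14 to 23, with het at rank 31.3. In Cntnap5c intron 11 (chr17:58143817-58144089) it went from 44.7 to 75.1. Changes of at least 20 points were present in both directions in each of the 5 genes other than Cntnap1.

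The base content of the window peaks differed from that of the whole lists. Most window peaks were intronic (89.4% in WT), and they were not compared with intronic peaks of other genes. The part of location in these differences was not tested. The 301 bp around the summits had a median GC of 45.2% in WT, 46.0% in het and 45.2% in mutant, against 50.2%, 50.8% and 49.5% of all peaks. CG dinucleotides averaged 2.65 in the WT windows against 6.54 in all WT peaks. The CTCF core part AGGNGGC was found in 15.7% of the WT window peaks against 25.5% of all, CAGCTG in 23.3% against 28.6% and TAATTA in 10.6% against 7.52%. Shared and unshared WT window peaks had nearly equal median GC (45.2% and 45.5%), while CAGATG was in 35.5% of the shared and 25.0% of the unshared ones. In mutant the CAGATG shares were 35.9% and 36.7%, so this difference was not seen in both lists.

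Partners of the Caspr proteins gave a comparison within the same biology. The list held Cntnap3, contactins (Cntn1, Cntn2), the cell adhesion molecules Nfasc and Nrcam, Kv1 channels and their beta subunit (Kcna1, Kcna2, Kcna4, Kcnab2), the band 4.1 protein Epb41l3, the scaffolds Dlg1 and Dlg4, and Lgi1 with its receptor Adam22. A start-site peak was present in 14 of 14 genes in WT, 13 in het and 14 in mutant, with Cntnap3 the gene that lacked one in het. Of 188 WT peaks in their windows 30 had no mutant peak (16.0%, 11.4 to 21.9), and of 216 mutant peaks 54 had no WT peak (25.0%, 19.7 to 31.2). The shares over all peaks were 22.8% and 30.7%, so the partners' WT interval lay below the whole list and the partners are no neutral baseline. Both shares were also below those of the 6 genes, and the intervals of the 2 sets were apart for WT peaks but overlapped for mutant peaks. Cntn1, the paranodal partner of Caspr, had 3 of 30 and 11 of 38, and Cntn2, the partner of Caspr2, 1 of 7 and 3 of 9. Cntnap3, the remaining Caspr gene, had 1 peak in WT and 2 in mutant over 168 kb.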

How the data were processed

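ATAC-seq libraries of 3 WT, 3 mutant and 2 het GNP samples were trimmed, aligned to mm10 and freed of duplicates by the authors (Trim Galore 0.4.1, Picard 1.139, and STAR 2.5.0b for WT and mutant or Bowtie 1.0.0 for het, per the labels), and peaks were called with MACS2 2.1.0.20150731 on the pooled libraries of each group, without a control. Per the file headers, WT and mutant reads were not shifted and het reads were shifted by -100 bp and extended to 200 bp, whereas the methods describe bowtie and a shift for all. The deposited pileup is a signal in extended tags, not scaled to depth. The deposited fold enrichment is a ratio of pileup to local background, each with 1 added. The deposited -log10 q values come from the authors' MACS2 call, and its p values were not used.

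Peaks were joined to GENCODE M21 genes with python 3.11.15, pandas 2.3.3, numpy 2.4.6 and scipy 1.17.1, counting peaks as shared at 1 bp of overlap, with Wilson 95% intervals. Overlap functions were checked on simulated lists. Background was taken as (pileup + 1) / fold - 1. No peak passed the end of any of the 21 GRCm38.p6 chromosomes compared. Likeness was the distance between peaks per Mb in the 3 lists, among genes of similar window length. Named peaks were, for each gene, those at starts, the strongest, the strongest in 1 list alone and the largest rank changes; values of further peaks are given as context. The genes and lists were chosen with earlier results of these data known, and rank weighting, repeat content and implied background were added after seeing the data. Depth per library is not known from pooled lists. Of per-sample columns, 0 were left unused. A marker gene of the list is not reported here.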

Additional observations from a re-analysis of the deposited data

How the results depend on the processing

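Of 83 values recomputed for 11 results under 12 alternatives, 63 stayed within the interval of the reported value (or, for counts, within 1.5 times), 20 moved and 0 changed sign. With -log10 q of 5 or more in all lists, the windows held 114 WT and 141 mutant peaks, 18.4% of WT peaks lacked a mutant partner, het held 28.6% of these, and regions in all lists and in WT alone were 45.9% and 8.81%. The whole lists then gave 13.7% and 24.0% for WT and mutant peaks without a partner. With lists cut to the length of the het list, 140 WT and 140 mutant peaks remained, 25.7% of WT and 23.6% of mutant peaks had no partner (19.6% and 18.6% in the whole lists), het held 33.3% and 51.5% of these, and the median rank change of shared peaks was 0.37 (-1.03 to 3.41). Fewer weak peaks enter these counts by construction. Het shares, region patterns and rank changes of the whole lists were not computed under any alternative, so these window values have no whole-list value beside them. With 50% reciprocal overlap the shares without a partner were 45.3% and 47.6% (35.9% and 43.8% in the whole lists), and het held 10.3% of the unshared mutant peaks. With a distance of 300 bp, 32.2% and 32.9% had no partner (19.3% and 26.5% in the whole lists), and het held 5.26% of the unshared WT peaks. Without Cntnap2, 103 WT, 61 het and 112 mutant peaks remained, while the shares moved by less than their intervals. This alternative, that without Cntnap5a and that without peaks in repeats were chosen after seeing the data. In the 4 settings for which whole-list shares without a partner were recomputed, the WT share of the windows stayed above that of the whole list. Its interval held the whole-list share at -log10 q of 5 or more (12.4 to 26.5) and at equal list lengths (19.2 to 33.5). With 50% reciprocal overlap (39.1 to 51.7) and with 300 bp (26.6 to 38.4) it did not. The mutant share of the windows was also above that of the whole list in these 4 settings. Its interval held the whole-list share at equal list lengths (17.3 to 31.2) and with 50% reciprocal overlap (41.4 to 53.8). At -log10 q of 5 or more and with 300 bp (27.4 to 39.0) it did not. The peak for which the family was picked is among the unshared mutant peaks. No paired analysis was possible because each list pools the libraries of its group, and for the same reason no library could be left out. A site without a call may still hold signal. The lowest pileup called was 7 tags in WT and mutant and 8 in het. A call also depends on the local background, so an uncalled site can hold more tags than these.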
